A study of Mus musculus with 6 samples.

Results

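The genes described here are those of the fibroblast growth factor (FGF), platelet-derived growth factor (PDGF) and vascular endothelial growth factor (VEGF) families, with their receptors and the TIE receptors of the angiopoietins. They were chosen by symbol alone, without use of their signals. The symbols matched 43 of the 31508 genes listed on the array, carried by 71 of its 45281 probes. The symbols *Angpt1*, *Angpt2* and *Angpt4* matched no probe. The array lists angiopoietins under older symbols, *Agpt*, *Agpt2* and *Agpt4*, with 6 probes, and the RefSeq gene table of GRCm38.p6 gives the second and the third as *Angpt2* and *Angpt4* and has no match for the first. These 3 genes are described beside the 43 and are not in their counts. *Figf* is now named *Vegfd*.

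RNA was taken from cortical bone tubes of C57BL6 mice aged 3 months, the shafts of the long bones of the leg (femur and tibia), emptied of marrow and cleared of surface cells by enzymes. Control tubes were cultured for 24 hours without hormone and PTH tubes for 24 hours with 250 nM PTH 1-34, and every array holds RNA pooled from the bones of several mice. There were 3 control and 3 PTH arrays, and the comparison asks how PTH changed transcripts of cells lying in their own bone matrix. Nothing in the sources says whether the 3 preparations of a group came from separate sets of animals, so p-values measure the spread between preparations.

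FGFs of the paracrine group bind heparan sulfate and act through tyrosine kinase receptors on nearby cells. The endocrine FGFs circulate and need Klotho proteins as co-receptors, and osteocytes are known as the source of the phosphate-regulating hormone FGF23. PDGFs act through a pair of receptors on mesenchymal cells and pericytes. VEGFs act through receptors found mainly on endothelium, and the angiopoietins signal to the same cells through TIE2, the product of *Tek*. In bone, VEGF made by osteoblastic and cartilage cells is known to draw vessels into the tissue.

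A probe was taken as above background on an array when its detection p against the negative controls was under 0.05, and a gene was tested if 1 of its probes reached this on 3 or more of the 6 arrays. After background correction and quantile normalization signals were set on a log2 scale, and each gene was represented by its brightest tested probe. Each array had 34.2% to 38.4% of its probes above background. The mean deposited signal was 429 on PTH replicate 3 and lay between 298 and 349 on the other 5 arrays, a difference in brightness that quantile normalization takes out. Dmp1, Mepe and Phex, genes that mark osteocytes, were above background on all 6 arrays, and Sost was above background on 3 control arrays and 1 PTH array. Endothelial genes were present too, with Pecam1, Cdh5 and Emcn above background on all 6 arrays.

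Of the 43 genes, 20 could be tested, against 11979 of all genes. Another 17 had no probe above background on any array and 6 were above background on 1 or 2 arrays. A single gene was called at an adjusted p under 0.05 (limma) with a fold change of at least 1.5, *Fgf21*, which was lower with PTH, and 0 genes were called higher. Over all genes tested 1.73% were called, 1.04% lower and 0.685% higher. At an unadjusted p under 0.05, 5 of the 20 genes were higher and 2 lower, where 7.51% of all genes were higher and 7.39% lower. The PTH arrays all lay above the control arrays for 7 of the 20 genes and all below for 2, against 11.1% and 10.8% of all genes. The median log2 fold change was 0.05 over the 20 genes and 0.01 over all genes tested, with 10 of the 20 above 0 and 10 below. A gene can reach the detection limit mainly through the group in which it is high, so these counts describe the tested genes and not the families as a whole.

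**Figure D1:**
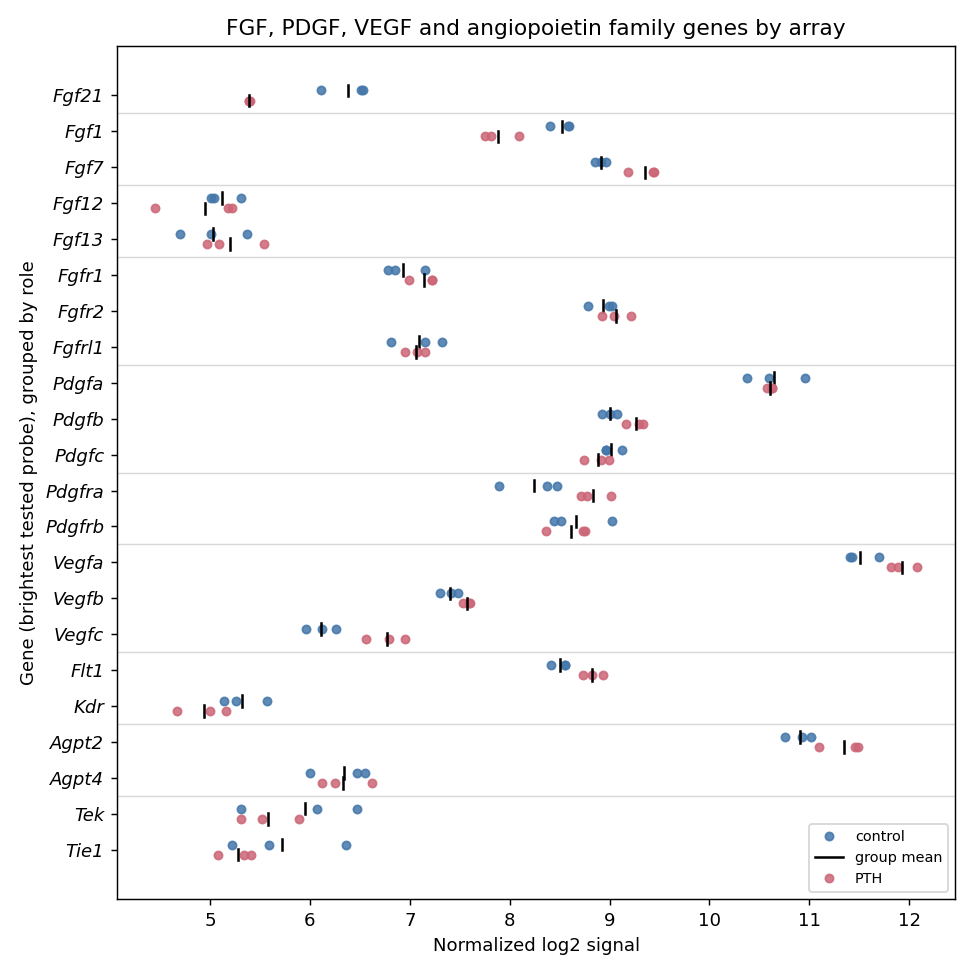
Normalized log2 signal (x axis) of the 20 tested genes and of *Agpt2* and *Agpt4* on each control array (blue) and PTH array (red), with black bars for group means of 3 arrays and grey lines between roles. The 3 PTH arrays of *Fgf21* lie together near 5.4, below the control arrays, while most other genes differ by less than 0.5 between group means.

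*Fgf21*, an endocrine FGF known mainly as a metabolic hormone of liver and fat, had normalized log2 signals of 6.53, 6.11 and 6.51 in untreated tubes, against 5.39, 5.40 and 5.39 after PTH. The groups did not overlap, and the PTH arrays lay closer to each other than the control arrays did. The control mean was 6.38 ± 0.23 (SD, n = 3) and the PTH mean 5.39 ± 0.01 (SD, n = 3). *Fgf21* thus fell by 0.99 on the log2 scale (SE 0.15, limma adjusted p = 0.0211), or 1.99-fold. Its signal was dim. The deposited values were 172, 174 and 182 in control tubes and 127, 133 and 152 with PTH, where the median of all probes lay between 111 and 129, although the probe was above background on all 6 arrays. The size of the change moved with the background correction. It was -0.38 with no background correction before quantile normalization and -0.51 under normexp at offset 50, in both cases below 1.5-fold with the adjusted p under 0.05, and -1.18 with background subtraction, a setting added after the data were seen. With arrays scaled by medians it was -0.91 and did not pass (limma adjusted p = 0.116). Leaving out each array in turn gave log2 fold changes from -1.13 to -0.92, but the adjusted p (limma) was under 0.05 only without control replicate 2 (0.0298) and lay between 0.0719 and 0.099 in the other 5 fits.

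The sequence before the start site of *Fgf21* is shown because *Fgf21* was the gene called. The table of RefSeq promoter windows held 17 of the 22 tested genes looked up, the angiopoietins included, with 25 windows of 250 bases before a start site. They were searched on both strands for 3 motifs, the cAMP response element TGACGTCA, the C/EBP-ATF composite element TGATGNAAT and the hypoxia response element core ACGTG. The composite element was found in *Fgf21* alone among these genes and in 0.816% of all 32851 windows. The cAMP response element was found in *Flt1* alone, and in 1.55% of all windows. The hypoxia core was found in 3 of these genes, *Fgf21*, *Fgfrl1* and *Vegfa*, and in 16.6% of all windows, and in *Fgf21* it was read on both strands of the same letters. Counted by gene and not by window, the composite element, the cAMP response element and the hypoxia core were found in 246, 478 and 4998 of all 27025 genes. Capitals mark the composite element of *Fgf21* (GRCm38.p6, chr7:45615491-45615740, minus strand, 140 to 132 bases before the start site) and the cAMP response element of *Flt1* (GRCm38.p6, chr5:147726012-147726261, minus strand, 81 to 74 bases before the start site). These are matches of letters, and the arrays did not measure binding of any factor.
Fgf21: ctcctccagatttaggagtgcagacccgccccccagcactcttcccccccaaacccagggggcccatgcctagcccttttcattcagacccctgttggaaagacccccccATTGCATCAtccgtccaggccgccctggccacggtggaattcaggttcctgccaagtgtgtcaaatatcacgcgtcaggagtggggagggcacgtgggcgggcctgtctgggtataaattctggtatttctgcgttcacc
Flt1: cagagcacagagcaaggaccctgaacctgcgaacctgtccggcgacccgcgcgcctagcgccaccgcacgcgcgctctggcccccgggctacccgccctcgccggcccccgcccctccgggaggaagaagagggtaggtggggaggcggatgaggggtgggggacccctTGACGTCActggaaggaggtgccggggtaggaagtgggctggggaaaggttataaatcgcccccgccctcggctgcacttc

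The other endocrine FGFs could not be compared. *Fgf23*, the phosphate hormone of osteocytes, has 1 probe and was above background on none of the 6 arrays. *Fgf15*, an intestinal regulator of bile acid synthesis, was above background on 1 PTH array.

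Among the 15 paracrine FGF ligands 2 were tested, *Fgf1* and *Fgf7*, and 11 had no probe above background on any array, among them *Fgf2* and *Fgf18*, which are known to act in bone and cartilage. *Fgf1*, a broad ligand that binds all FGF receptors, had log2 signals of 8.60, 8.40 and 8.58 in untreated tubes, against 7.81, 8.09 and 7.75 after PTH. The highest PTH array was lower than the lowest control array. *Fgf1* had a log2 fold change of -0.64 (SE 0.14), or 1.56-fold lower, which did not pass (limma adjusted p = 0.0785). Its adjusted p was 0.00456 under quantile normalization alone, 0.0136 under normexp at offset 50 and 0.029 when only probes detected at p under 0.01 on all 6 arrays were tested, while its log2 fold change ranged from -0.67 to -0.48 where no array was left out. The change was under 1.5-fold in the first (-0.48) and the second (-0.54) of these settings. The dimmer probe of *Fgf1*, above background on 3 control arrays and 1 PTH array, had a log2 fold change of -0.34 (limma adjusted p = 0.527) and its groups overlapped.

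*Fgf7*, the keratinocyte growth factor that mesenchymal cells make for epithelia, had log2 signals of 8.86, 8.96 and 8.92 in control tubes and 9.43, 9.45 and 9.19 with PTH. The groups did not overlap, in the direction opposite to *Fgf1*. Its log2 fold change was 0.44 (SE 0.13, limma adjusted p = 0.166), or 1.36-fold. Among the limma settings its adjusted p was under 0.05 only under quantile normalization alone (0.0239). *Fgf9* and *Fgf22* were each above background on 1 PTH array and on no control array.

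The FGF homologous factors *Fgf11* to *Fgf14* stay inside the cell and are known to bind sodium channels. *Fgf11* and *Fgf14* were above background on no array. *Fgf13* had log2 signals of 5.37, 4.70 and 5.01 in untreated tubes, against 4.97, 5.54 and 5.09 after PTH, and the groups overlapped. Its log2 fold change was 0.18 and that of *Fgf12* was -0.17, with limma adjusted p-values of 0.771 and 0.791. Both genes were above background on 2 arrays of each group, and without PTH replicate 2 the change of *Fgf12* was 0.09, so its direction rests on that array.

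Of the FGF receptors, *Fgfr1*, *Fgfr2* and *Fgfrl1* were above background on all 6 arrays and could be tested. *Fgfr2*, mutated in craniosynostosis syndromes, had log2 signals of 8.99, 9.03 and 8.78 in control tubes and 9.05, 9.22 and 8.93 with PTH, and the groups overlapped. Its log2 fold change was 0.13, with a 95% interval from -0.19 to 0.45 (limma adjusted p = 0.732). A dimmer probe of *Fgfr2* had a change of 0.08 (limma adjusted p = 0.923). *Fgfr1*, the main receptor of mature osteoblasts, had a log2 fold change of 0.22, with an interval from -0.13 to 0.56 (limma adjusted p = 0.575). *Fgfrl1*, a receptor without a kinase domain, had a change of -0.04, with an interval from -0.41 to 0.34 (limma adjusted p = 0.947). For all 3 receptors the interval of the brightest probe excluded a change of 1.5-fold in either direction. That of the dimmer *Fgfr2* probe ran from -0.51 to 0.67 and did not exclude a rise of 1.5-fold. *Fgfr3*, the receptor that restrains growth plate cartilage, was above background on 2 control arrays and no PTH array and was not tested, and *Fgfr4* was above background on none.

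**Figure D2:**
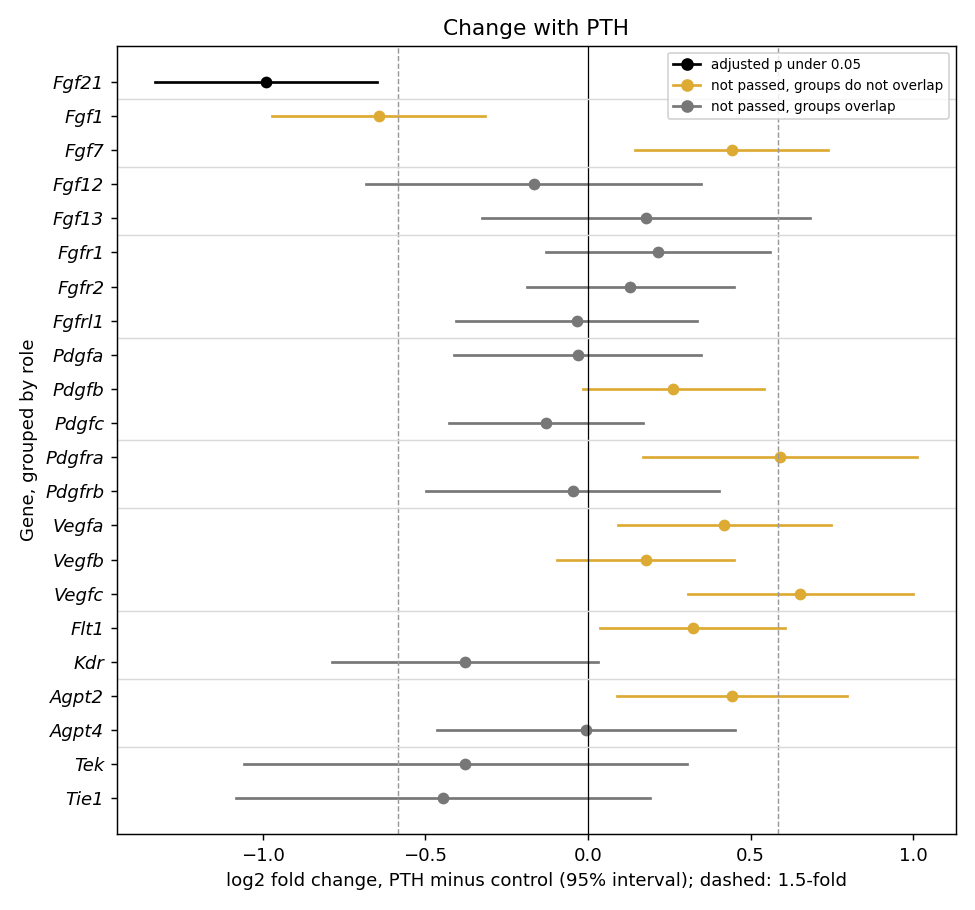
Log2 fold change of PTH minus control (x axis) with its 95% interval from limma for each tested gene, ordered by role, and dashed lines at 1.5-fold either way. *Fgf21* alone passed an adjusted p under 0.05 (black), and its groups did not overlap. Another 9 genes, including *Agpt2*, did not pass although their groups did not overlap (yellow), and the groups of the rest overlapped (grey). Of all genes tested, 21.9% had groups that did not overlap, whether called or not.

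The pathway genes around the FGF receptors were taken from a list of co-receptors, adaptors, heparan sulfate carriers and feedback genes. Of 33 on the array 20 could be tested, and 0 passed in either direction by limma, the lowest adjusted p being 0.0995. The list had a median log2 fold change of 0.09, with 11 genes above 0 and 9 below. The changes furthest from 0 were those of Flrt3 (0.98, limma adjusted p = 0.132), Flrt2 (0.80, limma adjusted p = 0.0995) and Etv1 (0.72, limma adjusted p = 0.213), and for each of them the groups did not overlap, PTH being higher. Spry4, a feedback gene, came next (-0.72, limma adjusted p = 0.163), without overlap and with PTH lower. Of the 20 genes, 6 lay higher with PTH without overlap and 7 lower, against 11.1% and 10.8% of all genes tested. Flrt2 and Flrt3 encode membrane proteins that bind FGF receptors. Kl, the Klotho co-receptor of FGF23, was above background on no array.

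All 3 tested PDGF ligands were above background on every array, and 0 of the 3 passed. *Pdgfa*, a ligand of the alpha receptor, had log2 signals of 10.38, 10.60 and 10.96 in control tubes and 10.57, 10.63 and 10.63 with PTH. The PTH arrays lay within the range of the control arrays, and the log2 fold change was -0.03, with a 95% interval from -0.41 to 0.35 (limma adjusted p = 0.953). *Pdgfb*, the ligand by which endothelium recruits pericytes, had a change of 0.26 (limma adjusted p = 0.373) with no overlap, and *Pdgfc*, a ligand activated by proteolysis, one of -0.13 (limma adjusted p = 0.714) with overlap. *Pdgfd* was above background on 1 PTH array and was not tested.

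*Pdgfra*, the alpha receptor that marks mesenchymal progenitors, had log2 signals of 7.89, 8.37 and 8.48 in untreated tubes, against 9.01, 8.72 and 8.78 after PTH. Control replicate 1 was the lowest and PTH replicate 1 the highest, and the groups did not overlap. *Pdgfra* had a log2 fold change of 0.59 (SE 0.18), or 1.51-fold, with a limma adjusted p of 0.188. The change was 0.41 without control replicate 1. Under quantile normalization alone it was 0.46, with a limma adjusted p of 0.021 but less than 1.5-fold. *Pdgfrb*, the beta receptor known from pericytes, had log2 signals of 8.45, 8.52 and 9.03 in control tubes and 8.36, 8.73 and 8.76 with PTH, and the groups overlapped. Its log2 fold change was -0.05, with an interval from -0.50 to 0.40 (limma adjusted p = 0.942). When arrays were scaled by medians the median log2 fold change of all genes was 0.12. That scaling turned the sign for *Pdgfa*, *Pdgfc*, *Pdgfrb*, *Fgfrl1* and *Agpt4*, which lay between 0.03 and 0.12 there, around that shift or below it. Leaving out single arrays turned the sign too, control replicate 3 for *Pdgfa* (0.12) and *Pdgfrb* (0.13), PTH replicate 1 for *Pdgfrb* (0.08), and control replicate 1 and PTH replicate 2 for *Fgfrl1* (0.08 and 0.02).

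The 3 tested VEGF ligands all had higher means with PTH and no overlap between groups, where 11.1% of all genes tested lay higher without overlap, and 0 of the 3 passed. *Vegfa*, the main growth factor of blood vessels, had log2 signals of 11.41, 11.42 and 11.70 in control tubes and 11.89, 11.82 and 12.08 with PTH at its brightest probe. This was a log2 fold change of 0.42 (SE 0.14), or 1.34-fold, with a limma adjusted p of 0.223, and of 0.026 under quantile normalization alone. A second probe of *Vegfa*, above background on all 6 arrays, had 10.14, 10.14 and 9.93 in control tubes and 10.21, 10.11 and 10.13 with PTH. There the groups overlapped and the log2 fold change was 0.08 (limma adjusted p = 0.828). The third probe was above background on no array. Probe sequences were not used, so which transcripts of *Vegfa* each probe measures is unknown here.

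*Vegfc*, the growth factor of lymphatic vessels, had log2 signals of 6.26, 5.96 and 6.12 in untreated tubes, against 6.95, 6.57 and 6.79 after PTH, with no overlap. *Vegfc* had a log2 fold change of 0.65 (SE 0.15), or 1.57-fold, with a limma adjusted p of 0.0904. It passed when only probes detected at p under 0.01 on all 6 arrays were tested (limma adjusted p = 0.0352), a setting with 8676 genes in place of 11979. As for *Fgf21* the signal was dim, and the log2 fold change was 0.31 under quantile normalization alone. *Vegfb* had a change of 0.18, with a 95% interval from -0.10 to 0.45 (limma adjusted p = 0.562). *Pgf*, the placental growth factor, was above background on 1 control array and *Figf* on none.

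**Figure D3:**
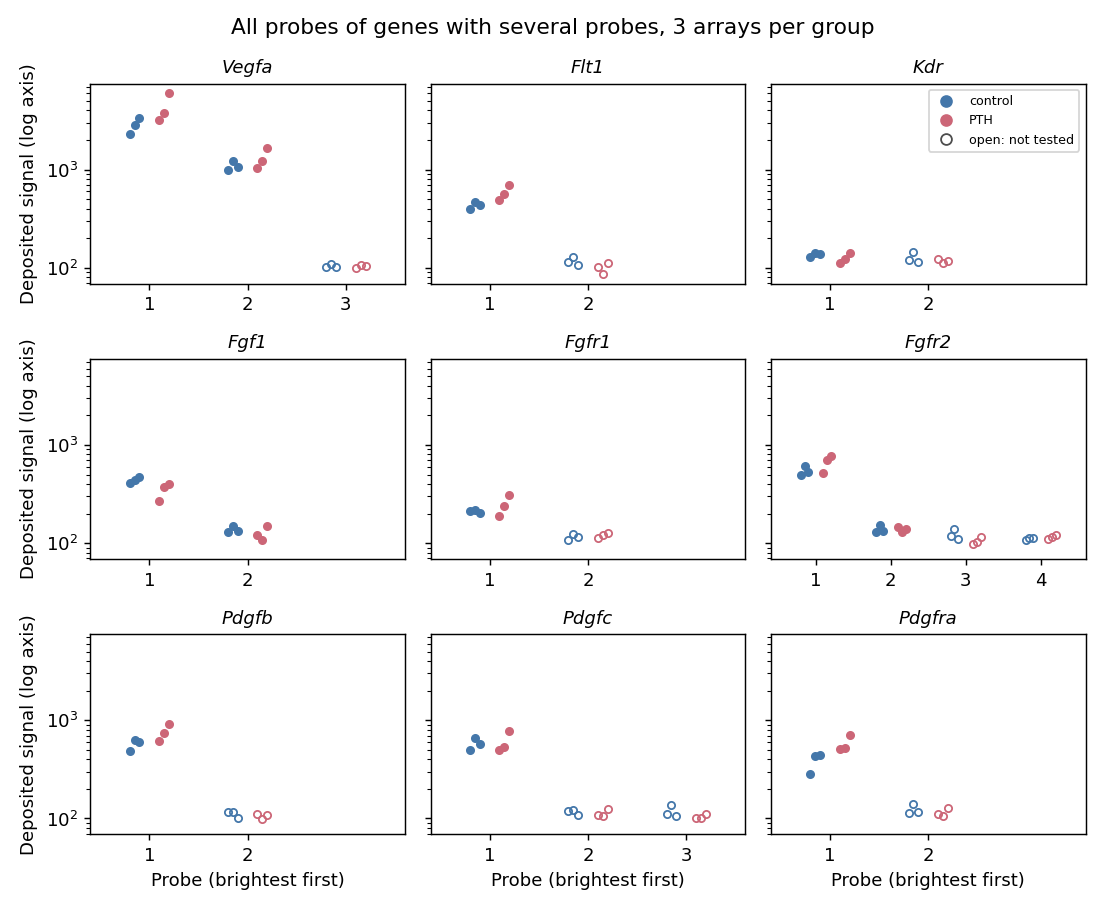
Deposited signal (y axis, log scale, not normalized) of every probe of 9 genes that have several probes, on 3 control arrays (blue) and 3 PTH arrays (red), with open circles for probes that were not tested. Most genes have 1 probe well above the level near 100 at which undetected probes lie, while *Vegfa* has a pair of bright probes, the first reaching 6069 and the second 1652 on PTH replicate 3, the array with the highest mean signal.

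**Figure D4:**
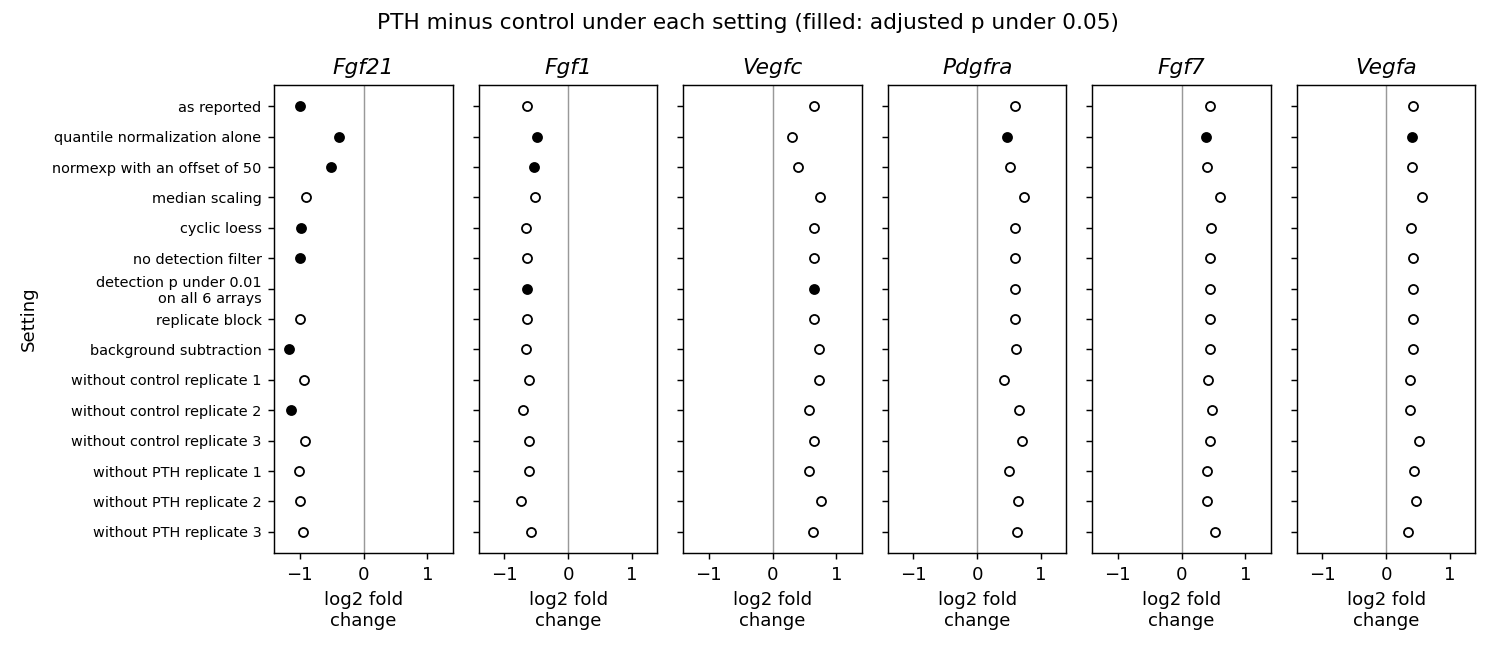
Log2 fold change of PTH minus control (x axis) of 6 genes under the setting reported and 14 others (y axis), filled where the adjusted p (limma) was under 0.05. The direction is the same in every setting shown for these 6 genes. Besides the setting reported, *Fgf21* is filled in 5 of 7 settings with all arrays and in 1 of 6 with an array left out. It was not tested under the stricter detection limit. *Fgf1* is filled in 3 settings and each of the rest in 1. *Fgf21* moves towards 0 without the full background correction, where it passes but stays under 1.5-fold.

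Neither of the tested VEGF receptors passed. *Flt1*, which encodes VEGFR1, had log2 signals of 8.55, 8.55 and 8.41 in untreated tubes, against 8.93, 8.82 and 8.73 after PTH, with no overlap. The difference of means was 0.32 (SE 0.12, limma adjusted p = 0.278), or 1.25-fold. *Kdr*, which encodes VEGFR2, the main signalling receptor of endothelium, was above background on 3 control arrays and 1 PTH array. Its log2 fold change was -0.38 (SE 0.18, limma adjusted p = 0.379) and the groups overlapped. *Flt4*, which encodes the VEGF-C receptor VEGFR3, has 3 probes, and no array had any of them above background.

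*Agpt2*, the gene of angiopoietin 2, which is known to loosen vessels by opposing TIE2 signalling, had log2 signals of 11.02, 10.93 and 10.76 in control tubes and 11.46, 11.48 and 11.10 with PTH. The groups did not overlap. Its log2 fold change was 0.44 (SE 0.15), or 1.36-fold, with a limma adjusted p of 0.23, and of 0.0284 under quantile normalization alone. *Agpt4* had a mean of 6.34 ± 0.30 (SD, n = 3) in control tubes and 6.33 ± 0.26 (SD, n = 3) with PTH, with overlapping groups and a difference that turned above 0 in 4 of the 6 fits with an array left out. *Agpt* was above background on 1 control array and was not tested. The TIE receptors had lower means with PTH. *Tek* had log2 signals of 6.47, 5.31 and 6.07 in control tubes and 5.31, 5.52 and 5.89 with PTH, a log2 fold change of -0.38 with an interval from -1.06 to 0.30 (limma adjusted p = 0.623). *Tie1* had one of -0.45 with an interval from -1.08 to 0.19 (limma adjusted p = 0.523). For both receptors the groups overlapped and the control arrays were spread widely.

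The VEGF and TIE receptors are known mainly from endothelium and *Pdgfrb* from pericytes, so the markers of these cells were measured on the same arrays. Of 20 endothelial markers 18 could be tested and 0 passed in either direction by limma, with a median log2 fold change of 0.04. Their summed normalized signal, on the linear scale, lay between 4949.8 and 5250.1 on the control arrays and between 5051 and 5331 on the PTH arrays. Of 11 markers of pericytes and smooth muscle 9 could be tested and 0 passed by limma, with 8 below 0. Their summed signal was 5633 to 5982 in control tubes and 5121 to 5283 with PTH. Most of that sum was Acta2, with mean log2 signals of 12.29 in control tubes and 12.16 with PTH. Its log2 fold change was -0.12 (limma adjusted p = 0.698). Cnn1 and Myh11, which mark smooth muscle, were above background on no array. Rgs5, a pericyte marker above background on 3 PTH arrays alone, was the 1 tested gene of the list above 0 (0.49, limma adjusted p = 0.198). The largest change was that of Cspg4 (-1.02, limma adjusted p = 0.176). For Cspg4 and for Tagln (-0.49, limma adjusted p = 0.252) the groups did not overlap, PTH being lower. The list had a median log2 fold change of -0.19. In RNA from whole tubes, fewer cells of a type and less RNA per cell cannot be told apart, and the part of these cells in the values of *Pdgfb*, *Pdgfrb*, *Flt1*, *Kdr*, *Tek*, *Tie1* and *Agpt2* was not tested.

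Markers of other cell types were measured as well. Of 13 tested osteocyte and osteoblast genes 4 were called lower (Ibsp, Pthr1, Mepe and Sp7) and 0 higher. Of the 13, 12 lay below 0 and 1 above, with a median log2 fold change of -0.81. The 1 above was Gp38 (0.70, limma adjusted p = 0.056), without overlap. Dmp1 (-1.21), Phex (-0.88) and Sost (-1.21) lay below 0 without passing (limma adjusted p = 0.0557, 0.0761 and 0.15), and only the groups of Sost overlapped. Of 11 tested macrophage and osteoclast genes 3 were called higher (Mmp9, Acp5 and Oscar, genes of osteoclasts) and 0 lower. The list had 6 genes above 0 and 5 below, a median of 0.36, and a summed linear signal of 15638 to 17491 in control tubes and 19619 to 24705 with PTH. Most of that sum was Ctsk and Mmp9, with mean log2 signals of 13.05 and 11.86 in control tubes. The macrophage markers of the list went different ways. Mrc1 (-0.80), Cx3cr1 (-0.55) and Emr1 (-0.27) lay below 0 without passing (limma adjusted p = 0.132, 0.416 and 0.42). Csf1r (-0.04) and Cd68 (-0.02) lay near 0, and Cd14 (0.39, limma adjusted p = 0.184) lay above 0 without overlap. Of 7 tested cartilage genes 1 was called lower, Agc1, which entered the test through the 3 control arrays and was above background on 0 PTH arrays. Of 4 tested red cell genes 2 were called lower (Hba-a1 and Hbb-b1), while 0 of 3 tested fibroblast and muscle genes passed by limma. Whether these differences have a part in the lower *Fgf21* and *Fgf1* or the higher *Vegfc* and *Pdgfra* was not tested.

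Regulators around the VEGF and PDGF pathways were taken from a list of co-receptors, oxygen sensors, vessel inhibitors and proteases, of which 21 of 24 could be tested. Of these 1 passed, Plat, which encodes the tissue plasminogen activator, a protease known to activate the product of *Pdgfc*. It rose by 0.63 on the log2 scale (limma adjusted p = 0.0433), and 0 genes of the list were called lower. The median of the list was 0.09, with 12 genes above 0 and 9 below.

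**Figure D5:**
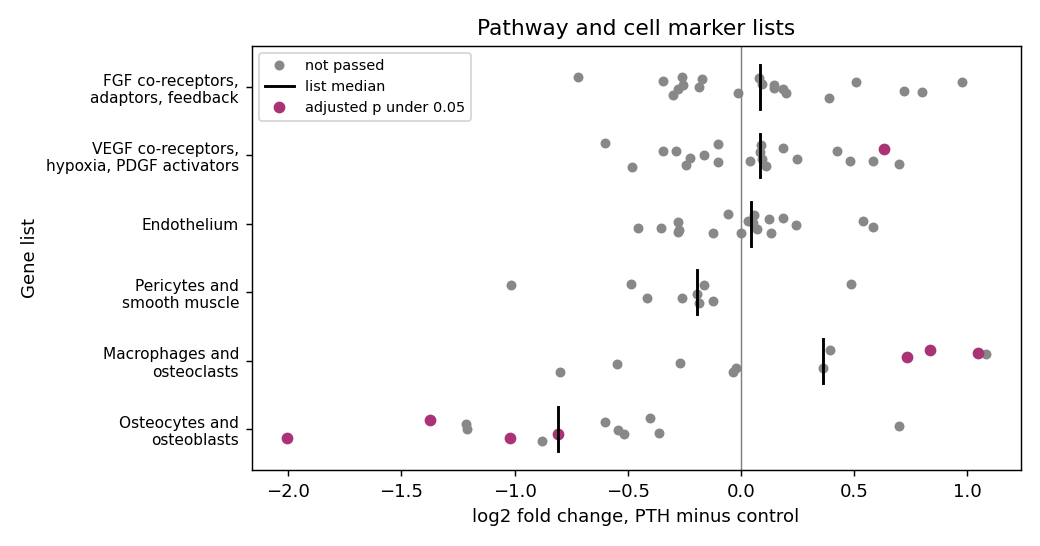
Log2 fold change of PTH minus control (x axis) for each tested gene of 6 lists, with list medians (black bars) and genes at an adjusted p under 0.05 and at least 1.5-fold in purple. The FGF pathway, endothelial and pericyte lists hold no called gene, the VEGF and PDGF regulators hold Plat, and the osteocyte list lies to the left with a median of -0.81.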

How the data were processed

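Each of the 6 Illumina arrays was scanned and exported by the authors with Genome Studio (version not given in the sources used here). The deposited intensity of each probe is linear, neither normalized nor background subtracted, and the detection p-value deposited beside it compares the probe with negative controls. No column of per-sample values was left unused. Groups follow the sample titles. No genome build is named for the probes.

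Intensities were corrected, given an offset of 16, quantile normalized and taken to log2 by the neqc function of limma 3.58.1 (R 4.3.3). Probes detected at p under 0.05 on at least 3 arrays (16214) were tested by lmFit and eBayes, and p-values were adjusted over all of them (Benjamini-Hochberg). The procedure was first tested on simulated data. Quantile normalization is the study's, whereas the differential score of its software was not rebuilt. Genes were counted by symbol.

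The genes, lists and motifs were chosen with earlier results of these data known. Values on every array are given for called genes, for genes with at least 1.5-fold change and no overlap, and for the brightest gene of each role; values of *Fgf7*, *Flt1* and others were added after they were seen. Genes of the pathway lists are named where called, or otherwise as the 3 furthest from 0. Kl, Spry4 and the cell markers were named after their values were seen. Alternatives were other background corrections, scalings, filters, thresholds and probe rules, a block for the replicate number, omission of each array and the methods' t-test. The last is the Student's t-test of the study's general statistics, whereas the study called its array genes by the differential score of its software. No slide is named, so a slide block was not run. The number of arrays limits precision.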

Additional observations from a re-analysis of the deposited data

How the results depend on the processing

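The count of lower genes, 1 as reported (*Fgf21*), was 0 under median scaling, under normexp at offset 50, under quantile normalization alone, with the replicate number as a block and by the methods' t-test after Benjamini-Hochberg adjustment, 2 by the methods' t-test at its unadjusted threshold, and from 0 to 1 when each array in turn was left out. Under quantile normalization alone and normexp at offset 50, *Fgf21* lost the call through its fold change, and under median scaling (limma adjusted p = 0.116) and with the block (limma adjusted p = 0.07) through its p. The count of higher genes was 0 as reported and in each fit with an array left out, 1 (*Vegfc*) when only probes detected at p under 0.01 on all 6 arrays were tested, where *Fgf21* was not tested and *Fgf1* was the lower gene, and 2 by the methods' t-test at its unadjusted threshold. The other alternatives gave 0 higher and 1 lower gene. Same-numbered arrays correlated in their deviations from the group means at 0.07, 0.06 and 0.27. Arrays of different numbers correlated between -0.14 and 0.07, and the negative values were all those with a replicate 3 array. Whether the replicate 3 arrays share a source was not tested. The labels name none, so the numbers were not taken as pairs. Over single genes, 302 alternative values were computed, judged by an adjusted p under 0.05 whatever the fold, of which 287 stayed on the same side, 7 lost it and 8 gained it, and no value past it turned its sign. Of the gains, only *Fgf1* and *Vegfc* under the stricter detection limit also reached 1.5-fold. Dim signals limit *Fgf21*, *Vegfc*, *Kdr*, *Tek* and *Tie1*.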

Other observations

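Angiopoietin-like genes, secreted relatives of the angiopoietins that do not bind TIE2, were examined after the results were seen. *Angptl2* had a mean log2 signal of 8.52 in control tubes and 8.89 with PTH at its detected probe, and the groups did not overlap (log2 fold change 0.36, limma adjusted p = 0.268). *Angptl4*, an inhibitor of lipoprotein lipase, had a mean of 10.05 in control tubes and 10.26 with PTH, and its groups overlapped (limma adjusted p = 0.53). *Angptl6* was above background on 3 control arrays and 2 PTH arrays, and its groups did not overlap, PTH being lower (log2 fold change -0.79, limma adjusted p = 0.158).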
